A study of Mus musculus with 9 samples.

Results

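Gene expression in mouse sebaceous gland basal cells was compared between postnatal day 4 (P4) and postnatal day 30 (P30), the youngest and the oldest ages in the series. The comparison took 6 of the 9 libraries, numbered 2, 3 and 4 at P4 and 1, 2 and 3 at P30, and left out the 3 libraries of postnatal day 10. It covered the 13960 of 24972 gene symbols that had at least 10 counts in 3 or more of the 6 libraries. All mice were C57BL/6 and carried Lrig1CreERT2 together with Rosa26Confetti, a tamoxifen-inducible Cre at the Lrig1 locus and a multicolour reporter allele, so both ages share these alleles. The labels name no treatment and place the P30 samples in anagen, the growth phase of the hair cycle. Cells were cut from fresh frozen tissue by laser capture microdissection, which lifts small areas from a section, and total RNA was copied with a stranded kit for very small inputs. The series was designed to set gland progenitors during morphogenesis beside those of the steady state. Neither the number of animals behind a library nor the number of captured areas is given in the labels. The p-values therefore measure only the spread between these libraries, which may be technical.

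The sebaceous gland hangs on the upper hair follicle and is lined by basal cells that divide and feed the gland with sebocytes, which fill with lipid and burst to release sebum. In the mouse the gland takes shape around birth together with the first hair follicles and is later kept at a steady size by its progenitors, among them cells that express Lrig1. Mouse skin also holds a thin sheet of striated muscle, the panniculus carnosus, below the dermis. Many imprinted genes, which are read from 1 parental copy, are active in fetal and newborn tissues and are turned down as growth slows.

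Totals ranged from 10018141 to 15997754 counts per library. Detected genes, those with any count, ran from 12165 to 15719 at P4 and from 13750 to 17292 at P30. Transcripts that are made from the inactive X chromosome or from the Y chromosome did not divide the libraries by age. Xist had 0, 4.89 and 993 CPM (the TMM-scaled count relative to library size) at P4 and 2.17, 836 and 854 at P30, and the Y-linked Ddx3y had 72.9, 111 and 0.0631 and 70.8, 0 and 14.3. P4 library 3 and P30 library 1 held Y-linked transcripts with Xist at only 4.89 and 2.17 CPM. P30 library 3 held Xist at 854 CPM together with 4 Y-linked transcripts (Ddx3y, Eif2s3y, Kdm5d and Uty, with Uty at 0.614 CPM), and the labels give no sex. Results without that library are given below.

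The labelled tissue was checked against 8 markers of basal cells or of sebocytes, and all 8 were detected at both ages. Their presence alone does not identify the captured cells as basal cells of the gland. The basal keratin Krt5 had 1701, 1607 and 1423 CPM at P4 and 1446, 1041 and 1040.2 at P30. Lrig1 had 159, 124 and 149 CPM and 73.5, 87.8 and 71.2 CPM. The sebocyte receptor Mc5r had the fewest counts of the 8 over all 6 libraries, with 7.11, 1.45 and 14.8 CPM and 8.15, 3.93 and 24.3 CPM. Itga6, Krt14, Pparg, Scd1 and Elovl3 make up the rest of the 8. Transcripts of muscle, hair and dermis took larger shares of the counts than the 23 basal keratinocyte genes, which held 0.971, 1.09 and 1.13% at P4 and 0.87, 0.991 and 0.961% at P30. The 30 skeletal muscle genes held 3.68, 6.6 and 2.17% at P4 and 14.4, 11.9 and 14.8% at P30, so these ranges did not overlap. Hair shaft and inner root sheath genes held 9.42, 7.98 and 12.4% and 11, 4.75 and 2.95%, and fibroblast genes held 5.54, 5.98 and 2.94% and 1.88, 3.96 and 4.11%, and in both lists the ages overlapped. Sebocyte genes held 0.547, 1.25 and 2.43% and 0.464, 0.451 and 1.99%, with P4 library 4 and P30 library 3 the highest of their ages. These are shares of raw counts, not scaled for gene length or list size, so they do not measure amounts of tissue. Single genes can weigh heavily, since in P30 library 1 Tchh of the inner root sheath had 97437 CPM and titin (Ttn) 45259. In bulk samples such as these, fewer cells of a type and less RNA per cell cannot be told apart. The part of muscle, hair and dermal RNA in the results was not tested.

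**Figure D1:**
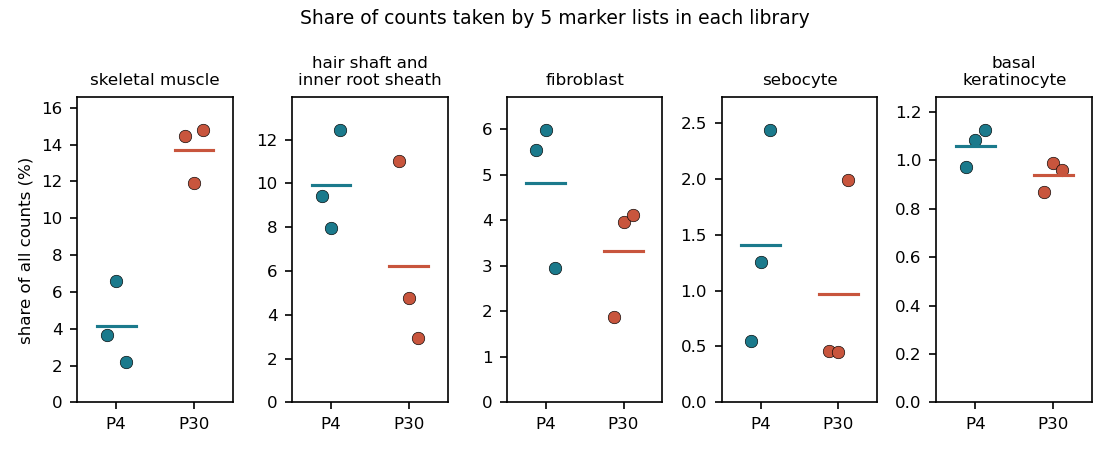
Share of all counts (%, y axis, from 0, with its own scale in each panel) taken by 5 marker lists at P4 and P30. Each point is 1 library and each horizontal line is the mean of 3, and only the skeletal muscle panel shows 2 groups that do not overlap, with P4 up to 6.60% and P30 from 11.9%.

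Of the 13960 genes, 18 passed the threshold of an adjusted p of 0.05 in edgeR's quasi-likelihood test, which is 0.129% of the genes tested. Higher at P30 were 7 genes (0.0501%), namely Retnla, Pvalb, Mylk2, Actn3, Atp2a1, Synm and Atp1b1. Lower at P30 were 11 genes (0.0788%), namely Arhgap36, Dlk1, Atp1b4, Igf2, Nrk, Mest, Gatm, Cpa4, Casq2, Meg3 and Armcx4. The CPM ranges of the ages did not overlap for any of the 18. They did not overlap for 2379 of all genes tested (17.0%), with 1402 above at P30 (10%) and 977 below (7.0%). The median log2 fold change over all genes was 0.04, and 52.4% of genes had a positive value. Libraries of 1 age varied widely, with a coefficient of variation of 79.3%, and no gene with a fitted change smaller than that of Armcx4 (log2 -1.84) passed.

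**Figure D2:**
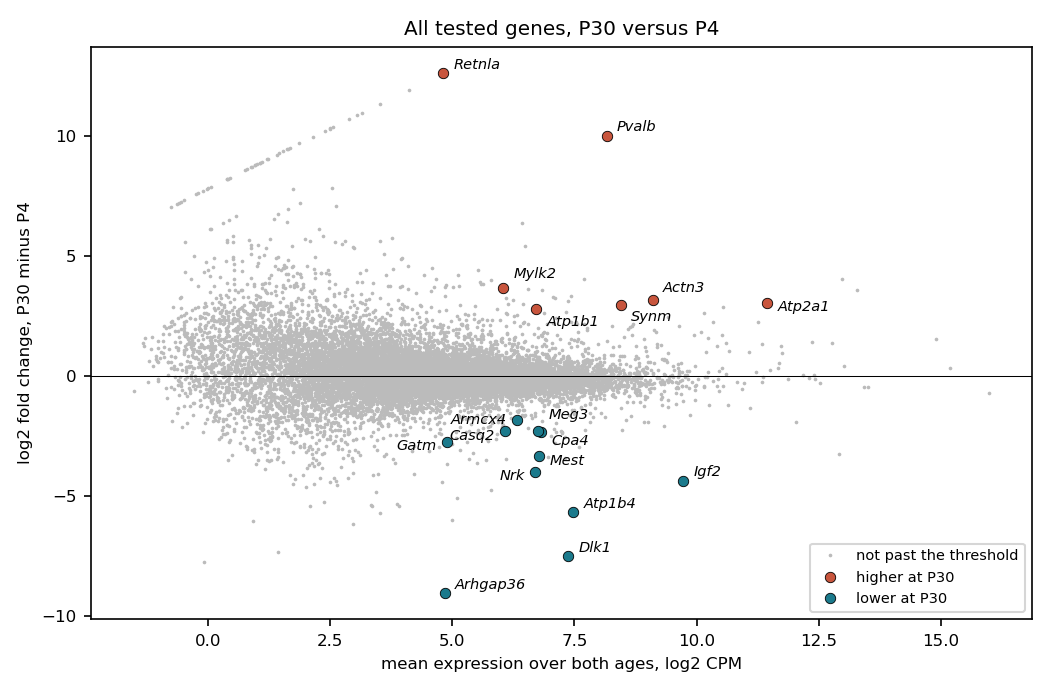
Log2 fold change of P30 minus P4 (y axis) against mean expression over both ages as log2 CPM (x axis) for the 13960 tested genes, with 1 point a gene. The 7 genes past the threshold that were higher at P30 are red and the 11 that were lower are blue, and the line of points at the upper left holds genes with 0 counts in all P4 libraries.

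Most calls were lost when any 1 library was left out. A fit without 1 library also tests with fewer libraries, and the 2 effects on the calls cannot be told apart. Without P30 library 3, the library with Xist at 854 CPM and Ddx3y at 14.3 CPM, 0 genes passed. The smallest adjusted p was then 0.0807 and 840 genes had an unadjusted p under 0.05. Of the 18 genes, 1 passed without P4 library 2, 6 without P4 library 3, 5 without P4 library 4, 3 without P30 library 1 and 7 without P30 library 2. The single gene that passed without P4 library 2 was Pvalb. Each of the 18 kept its sign in all of these fits and in the other alternatives run. With all 9 libraries in the fit, 5 of the 18 passed: Atp1b1, Cpa4, Mest, Pvalb and Synm. With the Xist level as a covariate, 15 of the 18 passed, and Armcx4, Casq2 and Gatm did not, at adjusted p = 0.0543, 0.0665 and 0.070. With a muscle covariate, the mean level of Ttn and Neb, which did not overlap between the ages (log2 CPM up to 13.4 at P4 and from 13.9 at P30), Atp1b4 alone of the 18 passed. That level and age cannot be told apart.

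**Figure D3:**
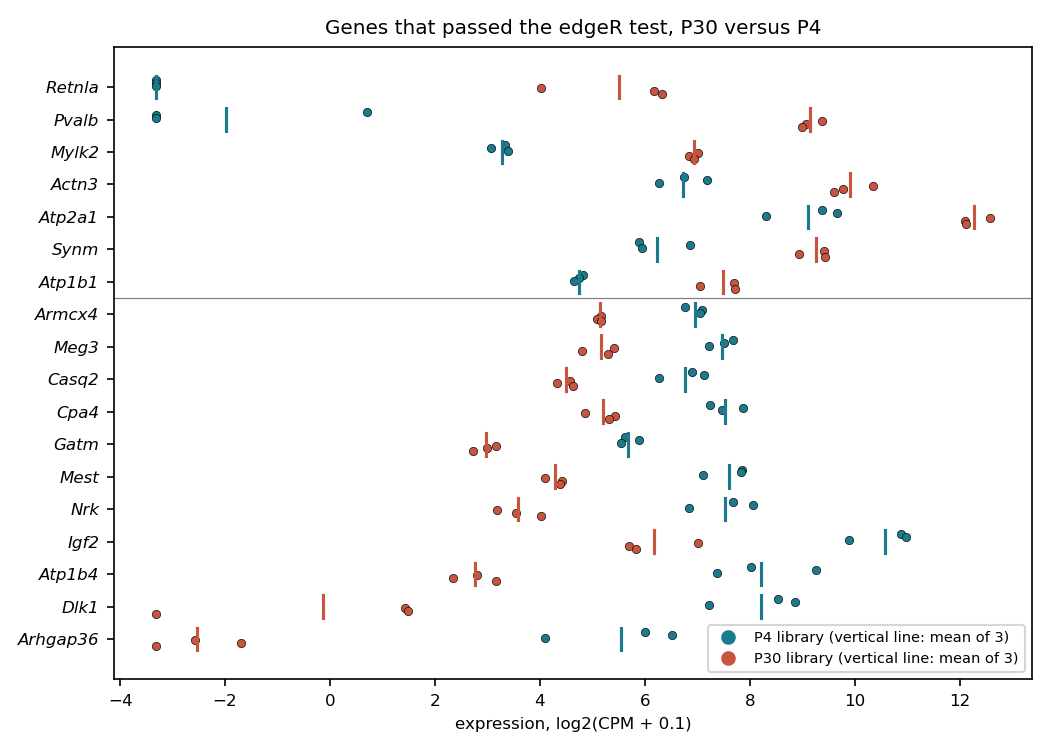
Expression as log2(CPM + 0.1) (x axis) of the 18 genes that passed the edgeR test, with 1 row a gene. Each point is 1 library, each vertical line is the mean of 3, and the horizontal line separates the 7 genes higher at P30 from the 11 lower, for all of which the P4 and P30 points lie apart.

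Growth genes that are active before and shortly after birth made up 4 of the 11 genes that fell. They come from a list of 29, of which 26 were tested, and 0.0788% of all genes tested fell. Igf2, the insulin-like growth factor of fetal growth, had 1888, 2018 and 952 CPM in the P4 libraries and 129.5, 51.5 and 56.8 in the P30 libraries, a log2 fold change of -4.35 ± 0.50 (SE, adjusted p = 0.0263). The lowest P4 library, number 4, was still above the highest P30 library, number 1. Mest, an imprinted gene of the hydrolase fold family, had 232, 229 and 137 CPM and 16.9, 21.3 and 20.7 CPM, a log2 fold change of -3.34 ± 0.30 (adjusted p = 0.0158). Its 3 P30 libraries lay within a few CPM of each other. Dlk1, a membrane protein related to the Notch ligands that marks immature mesenchymal cells and preadipocytes, had 373, 467 and 149 CPM and 2.58, 2.69 and 0 CPM, with 0 counts in P30 library 3, and fell by 7.49 ± 1.01 on the log2 scale (adjusted p = 0.0434). Meg3, the noncoding RNA read from the opposite parental copy of the Dlk1 domain, had 204, 183 and 149 CPM and 42.2, 27.9 and 39.1 CPM, a log2 fold change of -2.29 ± 0.27 (adjusted p = 0.0263). Dlk1 had the larger fitted fall of these neighbours, and the difference between the falls was not tested.

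These genes lie in known imprinted domains. On GRCm38, in the RefSeq annotation, Dlk1 (chr12:109452485-109463336, + strand) and Meg3 (chr12:109540996-109571729, + strand) are 77.7 kb apart on chromosome 12. Igf2 (chr7:142650768-142666816, - strand) lies 72.6 kb from H19, and Mest (chr6:30733506-30748466, + strand) lies 141.1 kb from Cpa4 (chr6:30568369-30592418, + strand), a carboxypeptidase gene of the same domain. Cpa4 fell as well, from 151, 235 and 177 CPM to 29.1, 43.1 and 39.5 CPM, a log2 fold change of -2.34 ± 0.28 (adjusted p = 0.0298). H19, the noncoding RNA beside Igf2, had 6166, 9756 and 3862 CPM and 2124, 1716 and 1458 CPM, a log2 difference of -1.90 ± 0.39 that missed the threshold (adjusted p = 0.131). Igf2 overlaps the antisense gene Igf2os and Mest overlaps the opposite-strand gene Copg2. The strand setting of the counting is not given in the sources used here, so reads from such partners cannot be told apart.

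The promoters of Dlk1 and Meg3 are shown because these neighbours fell together. Each window runs from 250 bases before to 50 after a RefSeq transcript start on GRCm38.p6, 5′ to 3′ on the + strand, at chr12:109452573-109452872 for Dlk1 and chr12:109540746-109541045 for Meg3. Capitals mark each CG, the dinucleotide that carries DNA methylation, searched on 1 strand since CG is its own reverse complement.
Dlk1: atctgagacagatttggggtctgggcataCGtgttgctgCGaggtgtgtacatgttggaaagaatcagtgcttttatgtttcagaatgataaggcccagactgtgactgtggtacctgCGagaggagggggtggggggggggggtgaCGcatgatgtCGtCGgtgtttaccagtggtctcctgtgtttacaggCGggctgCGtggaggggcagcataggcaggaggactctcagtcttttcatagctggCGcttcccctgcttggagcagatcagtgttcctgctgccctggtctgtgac
Meg3: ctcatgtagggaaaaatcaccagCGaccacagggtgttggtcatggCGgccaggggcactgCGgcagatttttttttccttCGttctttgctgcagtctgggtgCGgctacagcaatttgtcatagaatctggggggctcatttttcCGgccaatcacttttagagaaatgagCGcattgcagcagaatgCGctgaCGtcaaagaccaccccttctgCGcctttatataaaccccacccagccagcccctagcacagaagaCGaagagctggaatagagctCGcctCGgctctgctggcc
The Dlk1 window lies wholly inside the gene span given above, and not upstream of it. It holds 9 CG and the Meg3 window 13. Over the 32851 promoters of the same length in the RefSeq table, 94.6% hold at least 1 CG and the median is 7. Methylation was not measured in these samples, and the matches describe the letters only.

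Over the whole list of 29 fetal and imprinted growth genes, 26 passed the count filter (all but Magel2, Lin28b and Hmga2), 4 fell and 0 rose. Over all genes tested, 0.0788% fell and 0.0501% rose. Negative fold changes numbered 21, the median was -1.89, and 16 had P30 ranges below P4, beside a median of 0.04 and 7.0% over all genes. The median stayed between -2.78 and -1.55 in every alternative run, and it is the same with Trim71, which had 0 counts in all P4 libraries, at its lower bound. Further members were picked after their values were seen. Peg10, an imprinted gene derived from a retrotransposon, had 61.7, 124 and 46.5 CPM and 4.96, 7.65 and 12.9 CPM (adjusted p = 0.0714). Cdkn1c, an imprinted inhibitor of the cell cycle, had 222, 307 and 139 CPM and 33.9, 37.6 and 71.8 CPM (adjusted p = 0.0918). Igf2bp3, an RNA-binding protein of fetal tissues, had 53.5, 60.2 and 51.2 CPM and 6.32, 5.79 and 0.614 CPM (adjusted p = 0.123). In these 3 genes the ages did not overlap, yet none passed. Members with positive values included Dcn, the matrix proteoglycan decorin, at 323, 433 and 142 CPM and 234, 424 and 389 CPM, with overlapping ages.

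Genes of skeletal muscle made up 5 of the 7 genes that rose, from a list of 30 among the 13960 genes tested, of which 0.0501% rose. Mylk2, the myosin light chain kinase of skeletal muscle, had 9.95, 8.34 and 10.5 CPM at P4 and 129.8, 115 and 122 at P30, a log2 fold change of 3.67 ± 0.27 and the smallest adjusted p of all genes (0.00656). Relative to its mean, its spread within each age was the narrowest of these 5 genes. Actn3, the alpha-actinin of fast fibres, had 107, 146 and 76.9 CPM and 1302, 882 and 777 CPM, a log2 fold change of 3.17 ± 0.35 (adjusted p = 0.0256). Atp2a1, the calcium pump that refills the sarcoplasmic reticulum of fast fibres, had 665, 807 and 318 CPM and 6136, 4399.8 and 4431 CPM, a log2 fold change of 3.06 ± 0.41 (adjusted p = 0.0423). P4 library 4 was the lowest P4 library for Actn3 and Atp2a1, and P30 library 1 the highest of all. Pvalb, the calcium buffer parvalbumin of fast fibres, had 1.54, 0 and 0 CPM and 660.3, 541 and 513 CPM, and its log2 fold change of 10.02 ± 1.23 rests on P4 libraries of which 2 were at 0 (adjusted p = 0.032). Without P4 library 2, the fitted value was 15.92 against a P4 group at 0 counts, so its size depends on the prior count. Synm, the intermediate filament protein synemin, had 59.5, 116 and 61.6 CPM and 679, 489 and 690.5 CPM, a log2 fold change of 2.97 ± 0.35 (adjusted p = 0.0263).

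All 30 skeletal muscle genes were tested. Besides the 5 that rose, 25 missed the threshold, 30 had positive values, and 23 had P30 ranges above P4, beside 10% of all genes. The median was 1.68 against 0.04 over all genes, and it ran from 0.26 with the muscle covariate to 2.21 without P4 library 3. Ttn, the giant sarcomere protein titin, had 11979.9, 26077 and 9057 CPM and 45259, 37482 and 53114 CPM, with a log2 difference of 1.53 ± 0.47 (adjusted p = 0.407). Ckm, the muscle creatine kinase, had 446, 337 and 177 CPM and 2454, 1760.5 and 1659 CPM (adjusted p = 0.0607). Neither passed, although for both genes every P30 library was above every P4 library.

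Some muscle genes went the other way. Atp1b4, a relative of the sodium pump beta subunits that is best known from muscle around birth, fell from 260.1, 618 and 165 CPM to 6.86, 4.97 and 8.91 CPM, a log2 fold change of -5.66 ± 0.57 (adjusted p = 0.0166). Casq2, the calsequestrin of cardiac and slow muscle that stores calcium, fell from 118, 140.4 and 77.2 CPM to 23.6, 20 and 24.6 CPM, a log2 fold change of -2.30 ± 0.31 (adjusted p = 0.0423). For both genes P4 library 4 was the lowest of its age and still above every P30 library. Of 17 genes of developing muscle, 14 were tested (all but Chrng, Myf5 and Mymx), 0 passed, beside 0.129% of all genes. Negative values numbered 12, and 7 had P30 ranges below P4, beside 7.0% of all genes. Their median was -2.27, between -3.81 and -1.83 in the alternatives, and they held 1.28, 2.52 and 0.885% of counts at P4 and 0.352, 0.285 and 0.284% at P30. Tnnt2, the cardiac and embryonic troponin T, had 49.8, 115 and 27.6 CPM and 9.24, 4.97 and 8.39 CPM (adjusted p = 0.104). Ncam1, a cell adhesion molecule that immature fibres carry, had 118, 90.6 and 68.3 CPM and 26.3, 36.8 and 26.8 CPM (adjusted p = 0.104).

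The myosin heavy chains are the motor proteins of the sarcomere and come in developmental and adult forms. Levels were compared per kilobase of exon over 5 chains, of which Myh1, Myh2 and Myh3 were added after their values were seen. The developmental chains Myh3 and Myh8 made up 74.4, 76.3 and 83.9% of the summed level at P4 and 3.06, 3.17 and 2.85% at P30. Myh8, the neonatal chain, had 10414, 23684 and 7931 CPM and 1764, 1174 and 1454 CPM, a log2 difference of -3.26 ± 0.48 (adjusted p = 0.0607). Myh4, the chain of fast IIB fibres, had 615, 1903 and 238 CPM and 15856, 16007 and 14013 CPM, a log2 difference of 4.06 ± 0.72 (adjusted p = 0.0875). Neither gene passed, while the ages lay apart for both. The chains lie close together on chromosome 11 and resemble each other in sequence, so the split of reads between them is uncertain.

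**Figure D4:**
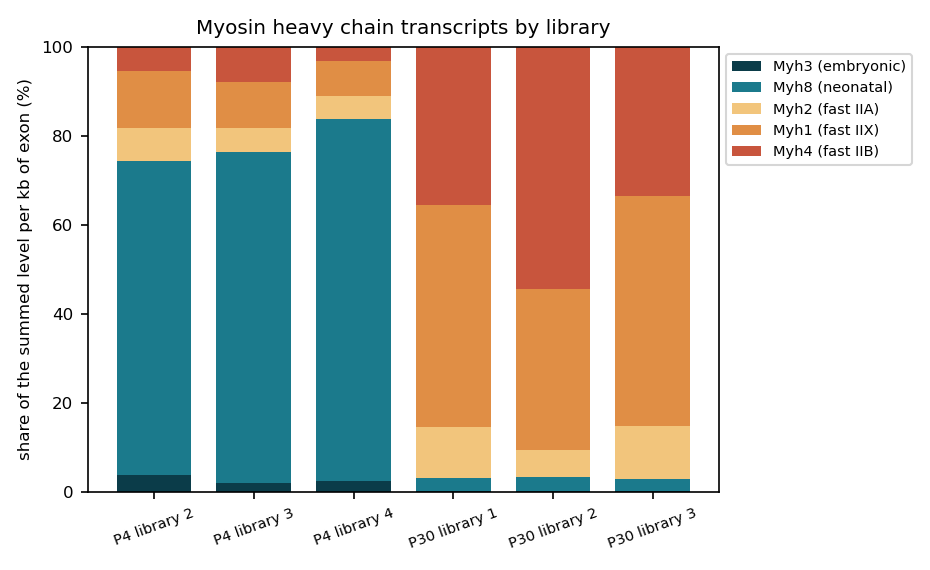
Share (%, y axis from 0 to 100) of the summed level per kilobase of exon taken by 5 myosin heavy chain genes in each of the 6 libraries (x axis). The developmental chains Myh3 and Myh8 (dark colours, bottom) hold 74.4% or more of each P4 bar and at most 3.17% of each P30 bar.

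Levels of muscle genes that passed, which were chosen by the age test on these same counts, were also set against titin. Per 1000 Ttn counts, Pvalb had 0.129, 0 and 0 counts at P4 and 14.6, 14.4 and 9.65 at P30, and Actn3 had 8.91, 5.61 and 8.49 and 28.8, 23.5 and 14.6. Mylk2 had 0.831, 0.32 and 1.16 and 2.87, 3.06 and 2.31, with every P30 library above every P4 library in all 3 genes. Casq2 had 9.89, 5.38 and 8.52 and 0.521, 0.534 and 0.463, and Atp1b4 had 21.7, 23.7 and 18.2 and 0.152, 0.133 and 0.168, with every P30 library below. For Casq2 and Atp1b4 this was fixed in advance, since the CPM of both was lower in every P30 library than in every P4 library. The CPM of Ttn was higher in every P30 library. Ckm, at 37.2, 12.9 and 19.6 and 54.2, 47 and 31.2, overlapped between the ages on this scale. These ratios are between genes within a library and show unequal differences, not which gene differed.

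Promoters of 4 of these muscle genes are shown, the calcium genes Pvalb and Atp2a1 that rose and Atp1b4 and Casq2 that fell, from RefSeq on GRCm38.p6, each 250 bases before to 50 after a transcript start and written 5′ to 3′ along the gene's strand. They lie at chr15:78206351-78206650 (- strand) for Pvalb, chr7:126463024-126463323 (- strand) for Atp2a1, chrX:38315872-38316171 (+ strand) for Atp1b4 and chr3:102086165-102086464 (+ strand) for Casq2. Capitals mark CANNTG, the E-box that basic helix-loop-helix factors of muscle are known to bind, which reads the same on both strands.
Pvalb: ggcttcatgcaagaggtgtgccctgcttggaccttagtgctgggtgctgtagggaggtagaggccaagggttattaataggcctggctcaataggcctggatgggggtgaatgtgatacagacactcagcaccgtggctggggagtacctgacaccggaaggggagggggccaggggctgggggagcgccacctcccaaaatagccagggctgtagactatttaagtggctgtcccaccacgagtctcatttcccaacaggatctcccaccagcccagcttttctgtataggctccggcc
Atp2a1: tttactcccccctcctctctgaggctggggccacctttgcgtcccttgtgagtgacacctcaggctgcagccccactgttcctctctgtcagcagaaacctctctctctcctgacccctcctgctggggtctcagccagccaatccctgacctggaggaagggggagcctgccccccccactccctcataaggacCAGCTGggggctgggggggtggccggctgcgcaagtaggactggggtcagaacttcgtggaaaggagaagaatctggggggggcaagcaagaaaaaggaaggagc
Atp1b4: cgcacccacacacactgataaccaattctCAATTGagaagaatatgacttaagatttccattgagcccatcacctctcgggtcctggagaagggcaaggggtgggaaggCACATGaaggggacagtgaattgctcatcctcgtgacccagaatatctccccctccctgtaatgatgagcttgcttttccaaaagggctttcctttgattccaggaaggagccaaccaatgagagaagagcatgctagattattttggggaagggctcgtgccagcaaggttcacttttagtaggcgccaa
Casq2: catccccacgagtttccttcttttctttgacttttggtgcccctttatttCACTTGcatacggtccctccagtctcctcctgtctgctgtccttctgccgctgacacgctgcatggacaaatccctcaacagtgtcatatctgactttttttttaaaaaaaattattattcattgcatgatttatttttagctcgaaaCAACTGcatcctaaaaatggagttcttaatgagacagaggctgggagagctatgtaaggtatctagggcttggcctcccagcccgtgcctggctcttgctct
The window of Pvalb holds 0 of these matches, that of Atp2a1 holds 1, and those of Atp1b4 and Casq2 hold 2 each. Of the 32851 promoters of this length, 72.3% hold at least 1 match. The Atp2a1 match is CAGCTG, a form of CANNTG found in 16.3% of promoters. A match describes letters and not a bound site. Promoters of 16 of the 18 genes were in the table, and Actn3 and Mylk2 are named only.

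Among transport genes, 1 passed. Atp1b1, the common beta subunit of the sodium-potassium pump, rose from 28.1, 26.6 and 25 CPM to 209, 133 and 209.8 CPM, a log2 fold change of 2.79 ± 0.27 (adjusted p = 0.0166). The P4 libraries lay within a few CPM of each other, and P30 library 2 was the lowest at P30. The water channel Aqp4 had 1.6, 0.994 and 8.07 CPM and 68.3, 47.5 and 82.1 CPM (adjusted p = 0.104). Of 22 tested ion and water transport genes, a list that does not hold Atp1b4, Atp1b1 alone rose and 0 fell, beside 0.129% called over all genes. Positive values numbered 18, beside 52.4% of all genes, and the median was 0.46. Atp1b1 overlaps the opposite-strand gene Nme7. Per 1000 Ttn counts Atp1b1 had 2.34, 1.02 and 2.77 at P4 and 4.62, 3.55 and 3.95 at P30.

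Retnla, a secreted protein of the resistin family known from macrophages and fat, was the gene with 0 counts at 1 age among those that passed. It had 0 counts in all 3 P4 libraries and 16.2, 71.7 and 80.1 CPM in the P30 libraries, with library 1 the lowest. Against a floor of 3 counts over the P4 group it was at least 807-fold higher at P30 (adjusted p = 0.0363). The floor covers counting error only, since amplified reads are not independent molecules. Retnla has close relatives in the mouse genome, so its read assignment is uncertain. Macrophage and dendritic cell genes held 0.0369, 0.0482 and 0.0167% of counts at P4 and 0.0374, 0.118 and 0.0883% at P30, and adipocyte genes held 0.352, 0.319 and 0.224% and 0.509, 0.378 and 0.759%. Their part in the Retnla value was not tested.

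Of the 11 genes that fell, 4 lie on the X chromosome. Nrk, a kinase of the germinal centre kinase family, had 204, 267 and 115 CPM and 9.03, 11.5 and 16.2 CPM, a log2 fold change of -4.0 ± 0.40 (adjusted p = 0.0166). Arhgap36, which can activate Hedgehog signalling, had 64, 91.3 and 17 CPM and 0.0679, 0.207 and 0 CPM, and fell by 9.04 ± 1.01 on the log2 scale (adjusted p = 0.0256). At P30 this gene was near 0 in every library, so the fitted size depends on the prior count. Armcx4, an armadillo repeat gene of the X-linked Armcx cluster, had 108, 136 and 133 CPM and 35.8, 33.7 and 35.7 CPM, a log2 fold change of -1.84 ± 0.24 (adjusted p = 0.0398). It was the smallest change that passed, with tight P30 libraries. Atp1b4 is the fourth X-linked gene. P4 library 4, which had the high Xist level of its age, was the lowest P4 library for Nrk, Arhgap36 and Atp1b4 but not for Armcx4. The same library was also the lowest at P4 for Igf2, Mest, Dlk1, Meg3, Casq2 and Gatm, which are not X-linked, but not for Cpa4. Of 13701 tested genes with a position, 455 (3.32%) lie on the X chromosome, and their median log2 fold change was -0.06, with 210 positive and 245 negative values. Gatm, the enzyme that makes the creatine precursor guanidinoacetate, had 49.1, 59.3 and 46.7 CPM and 8.9, 7.86 and 6.55 CPM, a log2 fold change of -2.73 ± 0.37 (adjusted p = 0.0423), and is not X-linked.

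Without P30 library 3 none of the 18 passed. The log2 fold change of Mylk2 was 3.67 without that library, that of Atp1b1 2.69, that of Synm 2.88 and that of Actn3 3.31. Among the genes that had fallen, Igf2 was at -4.16, Mest at -3.38, Dlk1 at -6.96 and Atp1b4 at -5.88. Leaving out another library moved 3 of the 18 by more than 1.5 times, namely Pvalb as given above, Arhgap36 to -10.20 without P30 library 2 and Atp1b4 to -4.95 without P4 library 3. Adjusted p-values of the 18 without P30 library 3 ran from 0.0807 for Mylk2 to 0.182 for Casq2 and Retnla.

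The genes named next did not pass, while the ages lay apart in each. C4b, a complement component of the classical pathway, had 3.55, 0.0765 and 2.33 CPM and 119.7, 165 and 229 CPM (log2 difference 6.40 ± 0.91, adjusted p = 0.0572). Its near-identical copy C4a makes its count uncertain. Pltp, which moves phospholipids between lipoproteins, had 18.4, 16.3 and 12 CPM and 49.7, 94 and 102 CPM (log2 difference 2.40 ± 0.38, adjusted p = 0.0682). Smtnl1, a regulator of muscle contraction, had 18.8, 24 and 20.5 CPM and 101, 71.4 and 143 CPM (adjusted p = 0.0572). On the lower side were Col12a1, a fibril-associated collagen, with 672, 662 and 438 CPM and 201, 149 and 151 CPM (adjusted p = 0.0638), and Myh10, a nonmuscle myosin, with 346, 363 and 330.2 CPM and 140.2, 131 and 142 CPM (adjusted p = 0.068). With all 9 libraries in the fit, C4b, Pltp, Col12a1 and Myh10 passed. Serpinb6a, a protease inhibitor with close relatives, had 89.7, 126 and 78.4 CPM and 314, 260.1 and 275 CPM (log2 difference 1.53 ± 0.26, adjusted p = 0.074).

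In the gland and follicle epithelium, 0 genes of the basal, upper follicle, sebocyte and lipid lists passed, beside 0.129% of all genes, a share at which lists of this size would hold few calls or none. Of 20 upper follicle genes, 18 had negative values, with a median of -0.83 that became -0.12 with the muscle covariate, and 3 had P30 ranges below P4, beside 7.0% of all genes. Lrig1, the stem cell marker of the upper follicle whose locus carries the Cre, had a log2 difference of -0.89 ± 0.23 (adjusted p = 0.25), and its P4 and P30 libraries are given above. Lgr6, a receptor of the isthmus stem cells, had 35.6, 28.8 and 36.1 CPM and 5.16, 14.9 and 6.55 CPM (adjusted p = 0.341). Of 23 basal keratinocyte genes, 17 had negative values, with a median of -0.42. Krt5 had a log2 difference of -0.42 ± 0.26 (adjusted p = 0.846) and Krt14 of -0.61 ± 0.40 (adjusted p = 0.857). Gata6, a factor of the upper follicle and sebaceous duct, had 8.59, 11.6 and 26.9 CPM and 0.136, 8.76 and 16.3 CPM, and Prdm1, also called Blimp1, a repressor studied in the gland, had 99.8, 22.9 and 179.6 CPM and 42, 62.4 and 9.62 CPM. Both sets of libraries overlapped.

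The ages lay apart for 4 of the 26 sebocyte genes, near the 17.0% of all genes. Pparg, the nuclear receptor of sebocyte differentiation, had 29.1, 82.9 and 148 CPM and 23.6, 12.3 and 69.5 CPM (adjusted p = 0.817). Scd1, a desaturase that sebocytes make in quantity, had 1539, 4211 and 8006 CPM and 2539.9, 1695 and 10022 CPM (adjusted p = 0.995). P4 library 4 and P30 library 3 were the highest of their ages for Scd1. The 26 sebocyte genes had a median of -0.61, from -1.34 to -0.02 in the alternatives. Fasn, the fatty acid synthase, had 540.2, 850.3 and 1051 CPM and 1489, 1009 and 3263 CPM (adjusted p = 0.568). The 21 fatty acid synthesis genes had a median of 0.05 and the 25 cholesterol synthesis genes of -0.34, and both medians took either sign among the alternatives. Plb1, a phospholipase, had 4.15, 8.8 and 6.43 CPM and 10.5, 10.8 and 6.65 CPM and did not pass. Tchh, trichohyalin of the inner root sheath, had 67810.1, 75051 and 98659.5 CPM and 97437, 29180.4 and 22809 CPM.

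Cell cycle genes had mostly negative values and 0 of them passed, beside 0.129% of all genes. Of 25 S phase genes, 22 were negative, with a median of -0.53 (from -0.68 to -0.18 in the alternatives). Of 25 G2 and mitosis genes, 21 were negative, with a median of -0.59 (from -0.69 to -0.35), and 10 had P30 ranges below P4, beside 7.0% of all genes. Mki67, the common proliferation marker, had 942, 941 and 995 CPM and 949, 644 and 557 CPM (log2 difference -0.42 ± 0.27, adjusted p = 0.854). Ccna2, cyclin A2, had 93.8, 102 and 84.6 CPM and 55, 52.4 and 56.7 CPM (adjusted p = 0.383). The ages lay apart for Ccna2 and overlapped for Mki67.

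Energy metabolism lists had mostly positive values. Of 16 glycogen genes, 14 were positive (52.4% of all genes were) and 8 had P30 ranges above P4 (10% of all genes did), with a median of 0.92 that became -0.08 with the muscle covariate. Phka1, the muscle subunit of phosphorylase kinase, had 13.1, 14.6 and 11.4 CPM and 64.1, 46.1 and 67.8 CPM (adjusted p = 0.068). Of 22 glycolysis genes, 19 were positive, with a median of 0.66 that became 0.19 with the same covariate. Pfkm, the muscle phosphofructokinase, had 145, 139 and 71.1 CPM and 621, 442 and 442 CPM (adjusted p = 0.0706), and Pfkfb3, which makes its activator, had 29.9, 37.1 and 28.2 CPM and 75.4, 60.3 and 123 CPM (adjusted p = 0.194). Of 31 oxidative phosphorylation genes, 26 were positive, with a median of 0.41 that became 0.13. None of these genes passed, beside 0.129% of all genes. The skeletal muscle share of counts given above was higher in each P30 library than in each P4 library. Its part in these values was not tested.

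Of the lists of complement, interferon and MHC class I, and macrophage and dendritic cell genes, 0 members passed, beside 0.129% of all genes. Most values were positive. Of 17 tested complement genes, 14 were positive and 10 had P30 ranges above P4, beside 52.4% and 10% of all genes, with a median of 1.91 (from 0.88 to 2.46). C3, the central complement protein, had 50.5, 7.73 and 19.2 CPM and 197, 199 and 352 CPM (log2 difference 3.27 ± 0.64, adjusted p = 0.109), and C1s1, a protease of the C1 complex, had 20.9, 7.57 and 13.5 CPM and 60, 84.4 and 76.5 CPM (adjusted p = 0.0875). Of 27 interferon and MHC class I genes, 25 were positive and 13 had P30 ranges above P4, beside the same shares, with a median of 1.44 (from 1.0 to 2.72). H2-K1, a class I heavy chain, had 45.9, 56 and 31.3 CPM and 117, 241 and 240.2 CPM (adjusted p = 0.0717). Of 18 macrophage and dendritic cell genes, 17 were positive, with a median of 1.22. H2-Ab1, an MHC class II chain of antigen-presenting cells, had 4.26, 5.28 and 0.946 CPM and 21.9, 73.8 and 41 CPM (adjusted p = 0.131). C1qa, a macrophage transcript, had 12.1, 8.26 and 10.3 CPM and 22, 54.4 and 30.7 CPM (adjusted p = 0.313). Of 6 tested mast cell and granulocyte genes, 5 were negative, with a median of -1.38 (from -2.79 to 0.20). The 4 tested T cell genes, from a list of 14, were positive. The ages lay apart for 0 genes of these 2 lists, beside 17.0% of all genes. T cell genes held 0.00656, 0.00533 and 0.00839% of counts at P4 and 0.00297, 0.00836 and 0.0103% at P30, which overlap.

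**Figure D5:**
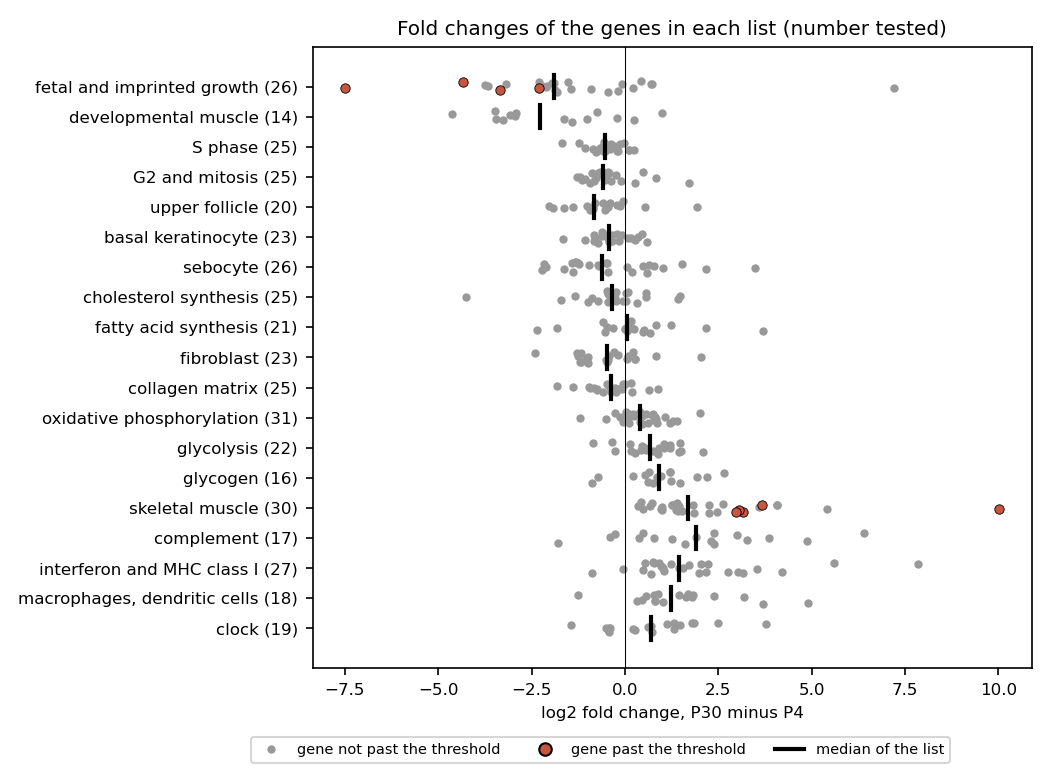
Log2 fold change of P30 minus P4 (x axis) for the tested genes of 19 lists (rows, number tested in parentheses), with 1 point a gene and a black bar at each median. Red points passed the edgeR test and occur only in the fetal and imprinted growth list (4) and the skeletal muscle list (5) among the rows drawn, whose medians are -1.89 and 1.68.

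Dermal matrix genes tended to negative values, with 0 calls, beside 0.129% of all genes. Of 25 collagen and matrix genes, 21 were negative and 6 had P30 ranges below P4, beside 7.0% of all genes, with a median of -0.38 that was -0.06 without P4 library 2. Of 23 fibroblast genes, 16 were negative, with a median of -0.47 (from -1.30 to -0.24). Twist2, a factor of dermal fibroblasts, had 31.7, 41.2 and 65.8 CPM and 7.2, 10.9 and 7.78 CPM (adjusted p = 0.0966). Of 20 basement membrane genes, a separate list, 15 were negative and 5 positive, with a median of -0.28. P30 ranges were below P4 for 2 of them, beside 7.0% of all genes. Among these 20, Col7a1, the anchoring fibril collagen, had 137, 344 and 180.1 CPM and 22.7, 50.9 and 43.5 CPM (adjusted p = 0.0843). For Twist2 and Col7a1 the ages did not overlap. The fibroblast share of counts given above overlapped between the ages.

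Among signalling lists, the IGF and insulin list held 1 call, the fall of Igf2, with 7 positive and 11 negative values in 18 genes and a median of -0.09. The Wnt list (30 tested, median 0.11), the Hedgehog list (13, 0.04), the Notch list (16, 0.24), the EGF and FGF list (24, -0.16) and the BMP and TGF-beta list (25, -0.19) held 0 calls. In the BMP and TGF-beta list 9 genes had P30 ranges below P4 and 0 above, beside 7.0% and 10% of all genes. Over all genes 0.129% were called, a share at which lists of this size would hold few calls or none. Of the 45 lists examined, 41 held 0 calls, and 8 of the 18 genes that passed were in no list.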

How the data were processed

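Total RNA was sequenced from laser-captured sebaceous gland basal cells, with 3 libraries at P4 and 3 at P30. Per the file headers, the authors deposited unnormalized counts of reads for each gene symbol. The submitters' processing notes name Trimmomatic 0.32, STAR, featureCounts 1.5.1 and mm10. How strand and multiply aligned reads were handled, and which STAR version was run, is not given in the sources used here.

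Counts were analysed in R 4.3.3 with edgeR 4.0.16. Genes with at least 10 counts in 3 or more of the 6 libraries were scaled with TMM and tested with the quasi-likelihood test, without covariates, with Benjamini-Hochberg adjustment over 13960 genes and a threshold of 0.05. The residual degrees of freedom were 4, the prior ones 4.50 and the common dispersion 0.629. SEs are approximate, the absolute log2 fold change over the square root of F, and cannot be relied on near 0 counts. Alternatives used limma 3.58.1, DESeq2 1.42.0, other scalings, filters and covariates, and fewer libraries. The fit was also run on simulated counts, with results not reported here and not used as evidence. No 2 libraries held identical values, with at most 5.43% of genes at equal counts. Spearman correlations were 0.805 to 0.945 within an age and 0.780 to 0.920 between ages.

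The comparison, the 45 gene lists (909 genes, 853 tested) and the tests were chosen with earlier results of these data known. Lists are described by counts and medians, with no test. Named genes were all that passed with a mean of at least 10 CPM and ranges apart, others by smallest p up to 12 a direction, up to 3 members a direction of each list, and a fixed set, of which the text gives those that bear on it. A few genes under this rule are not reported here. In RefSeq on GRCm38, 24407 of 24972 symbols had a match.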

Additional observations from a re-analysis of the deposited data

How the results depend on the processing

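The 18 genes kept their direction under all 20 alternatives run, while the number past the threshold did not hold. Scaling by RLE or without hair and muscle genes gave 7 higher and 11 lower, as did filterByExpr, and library totals alone gave 8 and 12. Higher and lower genes numbered 128 and 86 without a count filter, 209 and 120 with DESeq2, 41 and 17 with limma-voom, 35 and 46 with quality weights, and 13 and 14 with robust estimation. They numbered 5 and 4 with all 9 libraries in the fit, 0 and 2 with the muscle covariate, and 15 and 16 with the Xist covariate, which was chosen after seeing the data. All 18 passed without a count filter and with DESeq2. With limma-voom 13 of them passed, and Arhgap36, Atp1b4, Dlk1, Gatm and Retnla did not. With quality weights 15 passed, and Arhgap36, Pvalb and Retnla did not. With robust estimation 16 passed, and Dlk1 and Pvalb did not. The adjusted p of Retnla was 0.249 with limma-voom and 0.626 with quality weights. Leaving out 1 library at a time gave 0 to 6 higher and 0 to 4 lower. Leaving out the 3 libraries with the fewest detected genes gave 94 and 56, with P4 library 2 alone at its age and assumed to vary like the P30 libraries. A replicate block on the shared numbers 2 and 3 used 4 libraries and gave 73 and 56. Deviations of same-numbered libraries correlated at 0.136 for number 2, the highest of all pairs, and 0.065 for number 3. Pairs of unlike number ran from -0.162 to 0.116. So few libraries cannot decide whether the numbers pair them, and the main test did not pair them. The cause of the differing numbers of genes past the threshold was not tested. Among 272 named genes, 5433 gene values under alternatives held 0 reversals of a called gene, 130 calls lost and 224 gained, and 157 sign changes of genes not called. Depth covers counting error only, and libraries of 1 age varied by 79.3%.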

Other observations

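Further groups held 0 genes past the edgeR threshold, beside 0.129% of all genes, and are given as values. Of 19 tested clock genes, 13 had positive log2 differences and 8 had P30 ranges above P4, beside 52.4% and 10% of all genes, with a median of 0.71. Per1, a repressor arm gene of the circadian clock, had 32.9, 23.9 and 38.5 CPM at P4 and 73.2, 76.5 and 87.2 CPM at P30 (edgeR adjusted p = 0.172), with the ages apart. Cry1, also of the repressor arm, had 22.6, 32.2 and 30.9 CPM and 20.1, 11 and 0 CPM (adjusted p = 0.92). It was the only clock gene with P30 ranges below P4, beside 7.0% of all genes. Arntl, also called Bmal1, the activator arm, had 33, 20.1 and 32.4 CPM and 15.2, 31.2 and 18.6 CPM, with the ages overlapping. The labels used here give no time of day for the samples. Of 13 glucocorticoid-induced genes, 12 were positive, with a median of 1.05. Klf9, a transcription factor induced by glucocorticoids, had 21.7, 38 and 38.6 CPM and 60.5, 72.2 and 70.2 CPM (adjusted p = 0.409), with the ages apart. Per1 is in both lists.

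Retinoid genes did not go 1 way. Aldh1a3, an enzyme that makes retinoic acid, had 5.15, 1.15 and 7.82 CPM and 28.3, 62.8 and 17.1 CPM (adjusted p = 0.318), with P30 above P4. Cyp26b1, which breaks retinoic acid down, had 43.9, 73.6 and 85.1 CPM and 17.9, 30.6 and 11 CPM (adjusted p = 0.253), with P30 below P4. Crabp2, which carries retinoic acid to its receptors, had 45.1, 92.3 and 106 CPM and 29.6, 23.3 and 26.8 CPM (adjusted p = 0.186), also with P30 below. The 30 tested steroid and retinoid genes had a median of 0.11. The 10 melanocyte genes had a median of 1.91, from 1.45 to 3.21 with 1 library left out and 11.33 with the muscle covariate. Positive values numbered 8 and the ages lay apart for 1 gene, beside 52.4% and 17.0% of all genes. Tyrp1, a pigment enzyme, had 7.7, 0 and 10.8 CPM and 124, 130.4 and 14 CPM.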
